A study of Caenorhabditis elegans with 4 samples.

Results

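The genes described here are 10 cuticle collagens of C. elegans that are named after the body shape of their mutants. They are dpy-2, dpy-3, dpy-7, dpy-8 and dpy-10, which build the circular furrows of the cuticle, dpy-13 and sqt-3, which set body length, rol-6, whose mutants twist along the body axis, and bli-1 and bli-2, which build the struts of the adult cuticle. They were taken by gene name, and all 10 were found among the 19912 genes of the deposited gene table. Wild-type N2 (Bristol) worms were kept on NGM agar with heat-inactivated OP50 bacteria. RNA of whole adults, 48 h after the L4 stage, was sequenced from 2 libraries of worms exposed to 100 nM arsenite and 2 libraries of worms on control plates with the solvent, water. The study asked which genes change their expression under this low dose of arsenite. Whether replicates were grown as separate cultures is not stated in the sources used here, and the p-values therefore rest on the spread between samples that may differ only technically.

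The cuticle of C. elegans is a layered matrix that the epidermis secretes anew before each moult and that consists mainly of small collagens joined by crosslinks. Collagen chains fold into a triple helix of Gly-X-Y repeats, are trimmed by proteases outside the cell and assemble with particular partners. Most of these genes are transcribed in waves timed to the moults and to the end of embryogenesis. Furrow collagens depend on each other: loss of any of them removes the furrows, shortens the body and switches on osmotic, detoxification and antimicrobial genes in the epidermis. Adults no longer moult, but gravid adults carry embryos that make the first larval cuticle. In RNA of whole worms, fewer cells of a type and less RNA per cell cannot be told apart.

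The gene counts summed to 45541614 and 50472338 in arsenite replicates 1 and 2 and to 47577505 and 44263387 in control replicates 1 and 2. Any pair of libraries correlated with a Pearson's r of 0.995 to 0.996 in log2 CPM, across genes that are not independent replicates. Of the 10 collagen genes, 9 passed the filter on low counts and were tested among 13776 genes, and bli-2 did not pass. The whole-animal label was borne out by the yolk genes vit-2 and vit-6, the muscle genes unc-54, myo-3 and myo-2, the neuronal gene rab-3 and the germline genes glh-1 and pgl-1, of which the lowest, rab-3, had at least 540.7 normalized counts in every library. Of 3 adult epidermal collagens, col-19 had 3578 to 4260 normalized counts, whereas col-7 and col-62 had raw counts of at most 3 and 6.

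The 10 genes lay on chromosomes II, IV, V and X of WBcel235 (RefSeq coordinates, exons from Ensembl), each with 2 to 5 annotated exons and coding for a protein. On chromosome II, dpy-10 spans 6710149 to 6712227 on the minus strand and dpy-2 spans 6714292 to 6715971 on the plus strand, so that these 2 furrow genes are divergent neighbours separated by 2064 bases. The same chromosome carries bli-2 (5651394 to 5652434), rol-6 (8733050 to 8734239) and bli-1 (10708960 to 10712156). The furrow genes dpy-3 (2144605 to 2145647), dpy-8 (5148804 to 5150476) and dpy-7 (7536467 to 7537792) lie on chromosome X, dpy-13 (4235617 to 4236710) on chromosome IV and sqt-3 (12352745 to 12354320) on chromosome V. With the exception of bli-1, whose transcript has 2979 nt, and of dpy-10, the deposited transcripts are short, from 950 nt for dpy-3 to 1465 nt for dpy-8. The libraries do not mark the strand. Exons of dpy-8 share 109 bases with C31H2.14, those of sqt-3 144 bases with the noncoding F23H12.13 and those of bli-1 7 bases with dph-2, all on the opposite strand, and those of dpy-10 share 780 bases with T14B4.19 on the same strand. The gene bli-2 lies within the span of zyg-1 without sharing exon bases. Only uniquely mapped reads were counted by the authors, so reads that fit another collagen gene equally well are missing from these values, and the size of that loss was not tested.

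At this stage the 10 genes differed widely in level. On the RPKM scale, which accounts for transcript length, sqt-3 had 370 and 357 RPKM with arsenite and 391 and 436 RPKM on control plates, more than 98.4% of the genes tested. It made up 64.1% of the summed RPKM of the 10 genes. The furrow collagen dpy-10 followed with 75.2 and 71.6 RPKM with arsenite and 83.4 and 78.8 RPKM in controls, and in each library sqt-3 exceeded it by 4.68 to 5.54 times. Next came dpy-2 with 45.6 to 53.3 RPKM, dpy-7 with 36.7 to 44.5 RPKM and dpy-3 with 35.6 to 44.0 RPKM over the 4 libraries. The ranges of dpy-7 and dpy-3 overlap, so these 2 do not differ beyond their spread, whereas dpy-2 exceeded dpy-7 in each library by 1.17 to 1.27 times. A second tier was far lower, with dpy-13 at 4.81 to 7.73 RPKM, rol-6 at 2.34 to 4.33 RPKM and dpy-8 at 1.07 to 1.85 RPKM. Although dpy-8 is a furrow collagen like dpy-7, its level was 24.0 to 36.2 times lower in the same library. The strut collagens were close to absent, with bli-1 at 0.210 to 0.252 RPKM and bli-2 at 0.0621 to 0.407 RPKM, and their ranges overlap.

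**Figure D1:**
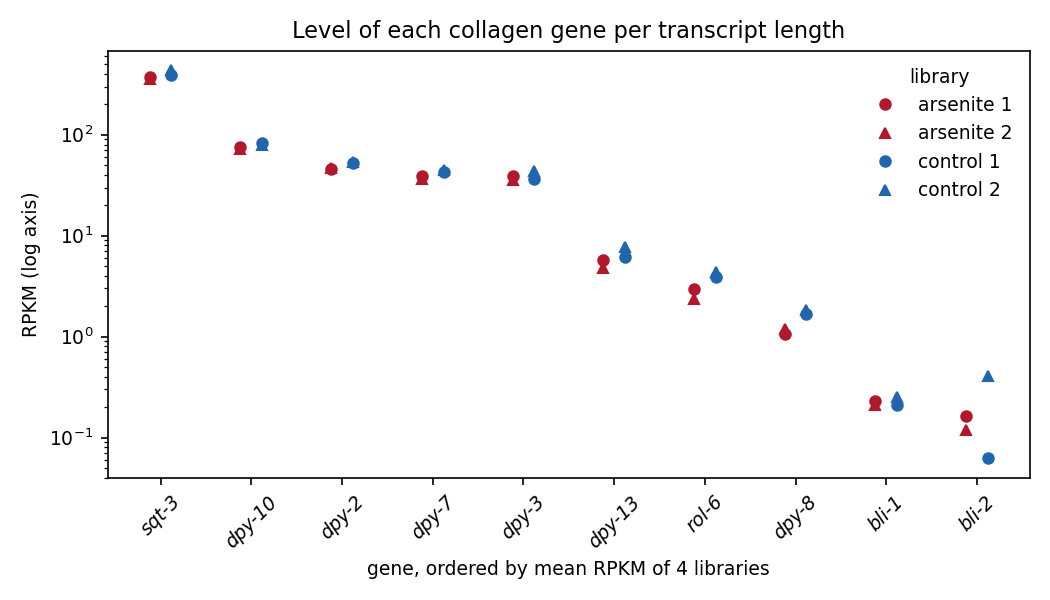
RPKM of each of the 10 collagen genes on a log axis, ordered by the mean of 4 libraries, with arsenite libraries in red left of control libraries in blue (circles replicate 1, triangles replicate 2). Levels run from 357 to 436 RPKM for sqt-3 down to 0.0621 to 0.407 RPKM for bli-2, a span far larger than the differences between groups. The ranges of dpy-7 and dpy-3 overlap, as do those of bli-1 and bli-2.

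Between arsenite and control worms, the levels of all 9 tested collagens had a log2 fold change below 0, but no single gene passed the test. The quasi-likelihood test of edgeR passed 0 of the 9 at an adjusted p under 0.05, beside 0% of all genes tested. The exact test of edgeR also passed 0 of the 9, beside 1.01% of all genes, and the likelihood ratio test and DESeq2 passed 0, beside 0.719% and 0.16% of all genes lower by these tests. The median log2 fold change was -0.15 over the 9 collagens and 0.0055 over all genes tested, of which 48.2% had a log2 fold change below 0. At an unadjusted p under 0.05 of the quasi-likelihood test, 3 of the 9 were lower with arsenite, namely dpy-7, dpy-8 and rol-6, beside 5.05% of all genes, and 0 were higher, beside 2.16%. The values of both arsenite libraries were below those of both controls in 7 of the 9, beside 19.1% of all genes.

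Among the furrow collagens, dpy-2 had 1977 and 2077 normalized counts with arsenite and 2210 and 2299 on control plates. Both arsenite libraries lay below both controls, with a gap slightly larger than the distance between replicates. The log2 fold change was -0.15 (SE, the standard error, 0.069, 95% interval -0.31 to 4.7e-05, quasi-likelihood adjusted p = 0.692). For dpy-7, the furrow collagen whose promoter is widely used to drive expression in the epidermis, the normalized counts were 1465 and 1417 with arsenite and 1559 and 1672 in controls. The groups did not overlap, and the log2 fold change was -0.16 (SE 0.073, interval -0.33 to -0.0017, quasi-likelihood adjusted p = 0.688). For dpy-10, a furrow collagen whose alleles can give dumpy as well as rolling worms, the normalized counts were 7560 and 7376 with arsenite and 8125 and 7890 in controls. Again the groups did not overlap, with a gap larger than the distance in either pair of replicates, and with a log2 fold change of -0.10 (SE 0.058, interval -0.23 to 0.029, quasi-likelihood adjusted p = 0.8). The files hold 2 transcripts of dpy-10, of 1591 and 1470 nt, and the deposited gene count is their sum, so that a read shared by both transcripts entered more than once. The longer transcript held 52.0% of the gene count in both arsenite libraries, 52.0% in control replicate 1 and 51.8% in control replicate 2. Because shared reads enter both transcripts, these shares do not measure how much each is used. The counts of dpy-10 therefore overstate its number of reads.

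For the furrow collagen dpy-3 the normalized counts were 1219 and 1137 with arsenite and 1098 and 1366 in controls. The controls span the arsenite libraries here, and the log2 fold change was -0.063 (SE 0.1, interval -0.29 to 0.17, quasi-likelihood adjusted p = 0.952). The weakly expressed dpy-8 had 51.59 and 58.28 normalized counts with arsenite and 78.19 and 88.72 in controls. Both arsenite libraries lay well below both controls, with a log2 fold change of -0.60 (SE 0.19, interval -1.02 to -0.17, quasi-likelihood p = 0.0112, adjusted p = 0.457, exact test adjusted p = 0.199). The raw counts behind it were 50 and 61 with arsenite and 82 and 83 in controls, which limits its precision.

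Of the collagens outside the furrows, sqt-3, an abundant collagen that embryos need to keep their elongated shape, had 14170 and 14020 normalized counts with arsenite and 14510 and 16650 in controls. The arsenite libraries lay close together and just under control replicate 1, while control replicate 2 was higher. The log2 fold change was -0.14 (SE 0.073, interval -0.31 to 0.018, quasi-likelihood adjusted p = 0.745). The log2 fold change of sqt-3 was -0.24 without control replicate 1 and -0.042 without control replicate 2. For dpy-13, a collagen of the annuli between the furrows, the normalized counts were 185.7 and 159.5 with arsenite and 191.7 and 249.1 in controls. The groups only just did not overlap, with a log2 fold change of -0.35 (SE 0.16, interval -0.70 to 0.0045, quasi-likelihood adjusted p = 0.693). It was -0.53 without control replicate 1 and -0.15 without control replicate 2.

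The lowest p among the 10 genes belonged to rol-6, a collagen best known for dominant alleles that make worms roll. Its normalized counts were 113.5 and 91.72 with arsenite and 144.9 and 164.6 in controls. Both arsenite libraries lay below both controls, with a gap larger than the distance between either pair of replicates. The log2 fold change was -0.59 (SE 0.16, interval -0.96 to -0.22, quasi-likelihood p = 0.00507, adjusted p = 0.37, exact test adjusted p = 0.0704, likelihood ratio adjusted p = 0.0587). With 1 library left out it ran from -0.75 without arsenite replicate 1 to -0.44 without arsenite replicate 2.

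The strut collagens bli-1 and bli-2, which in the adult cuticle span the fluid layer between its cortical and basal zones, gave almost no reads. Raw counts of bli-1 were 22 and 22 with arsenite and 21 and 23 in controls. Its normalized counts of 22.7 and 21.02 with arsenite and 20.03 and 24.58 in controls overlapped. The log2 fold change was -0.024 with a 95% interval from -0.69 to 0.64 (quasi-likelihood adjusted p = 0.994). Changes within these bounds are compatible with the counts at this depth, and the smallest detectable change was not determined. Raw counts of bli-2 were 5 and 4 with arsenite and 2 and 12 in controls, where the controls differ more from each other than from the arsenite libraries, and no test was run on them.

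**Figure D2:**
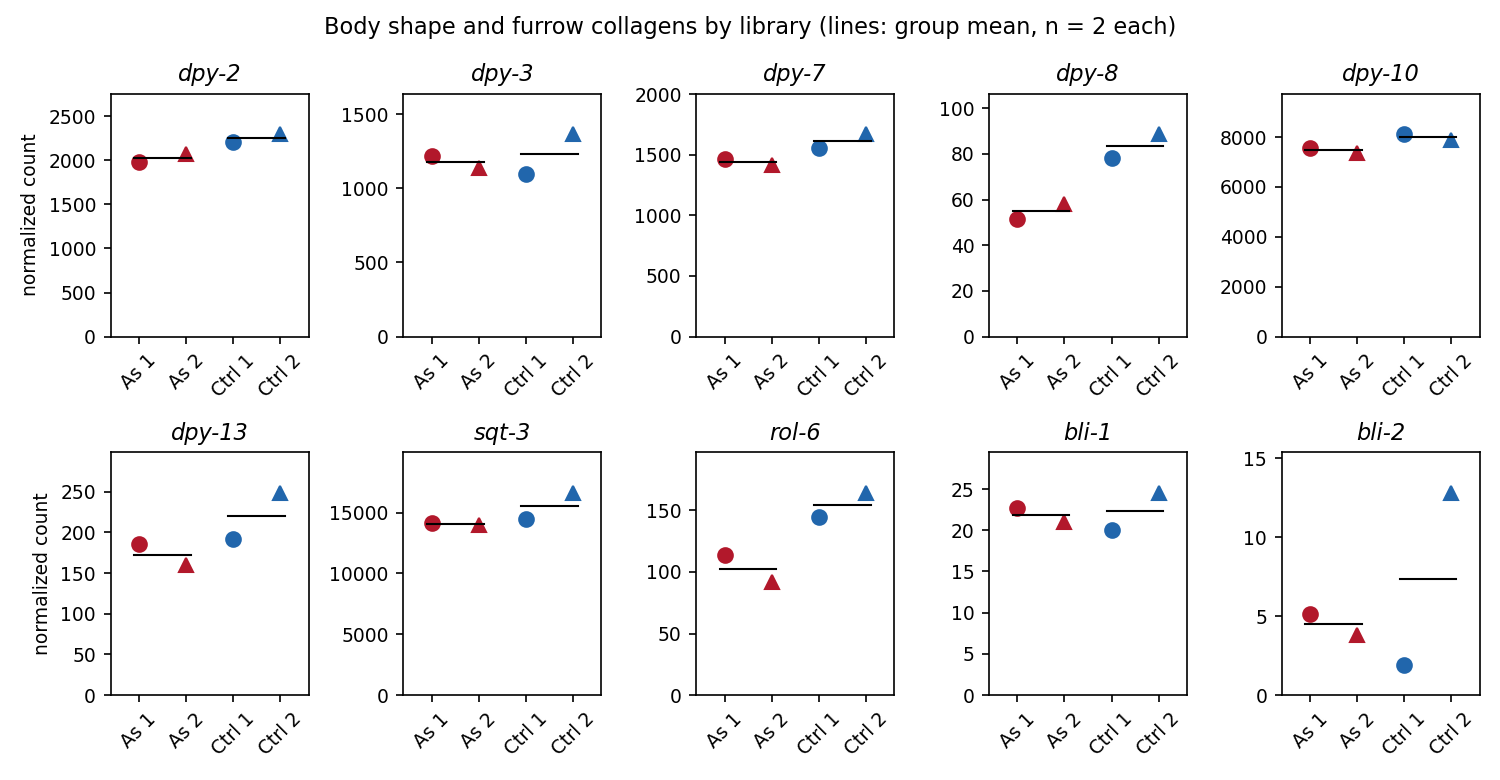
Normalized counts of the 10 collagen genes, 1 panel each with an axis from 0, with arsenite libraries (As, red) left of control libraries (Ctrl, blue) and a black line at each group mean (n = 2 each). In dpy-8 and rol-6 the arsenite libraries stand clearly below the controls, while in dpy-3, sqt-3 and dpy-13 control replicate 2 stands apart from control replicate 1.

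The spread between the controls bears on all of these values. In 8 of the 9 tested collagens control replicate 2 was the highest of the 4 libraries, the exception being dpy-10. The median log2 difference of control replicate 2 minus control replicate 1 was 0.18 over the 9 genes, against -0.016 over all genes tested. Arsenite replicate 1 differed from control replicate 1 by a median of -0.09 and from control replicate 2 by a median of -0.22. For arsenite replicate 2 these medians were -0.14 and -0.25. In size, the difference between the controls was thus within the range of those between arsenite and control libraries. Each collagen was lower in both arsenite libraries than in control replicate 2, and 7 of 9 were lower in each arsenite library than in control replicate 1. Without control replicate 2 the median log2 fold change was -0.12, dpy-3 and bli-1 were at 0.10 and 0.12, and 7 of the 9 stayed below 0. Without control replicate 1 the median was -0.22, and 7 of 9 were lower at an unadjusted p under 0.05, beside 6.49% of all genes, against 2 of 9 beside 7.17% without control replicate 2.

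**Figure D3:**
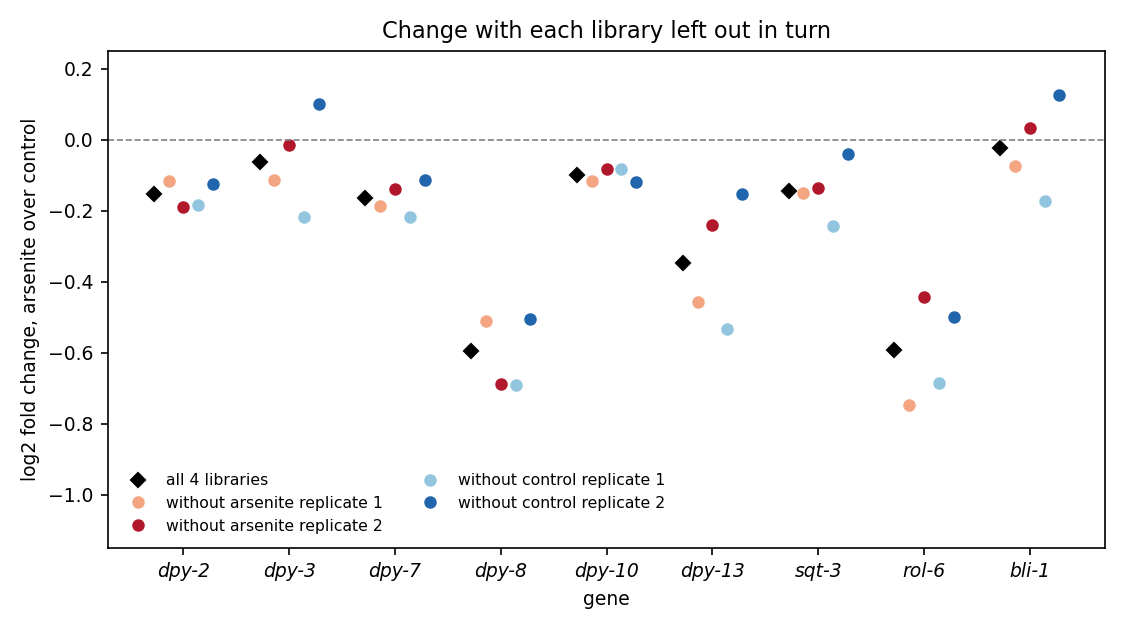
Log2 fold change, arsenite over control, of the 9 tested collagens with all 4 libraries (black diamonds) and with each library left out in turn (circles). The points of dpy-8 and rol-6 stay between -0.75 and -0.44, those of sqt-3 run from -0.24 to -0.042, dpy-3 and bli-1 turn above 0 without control replicate 2, and bli-1 also without arsenite replicate 2.

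Genes of similar level give the scale of these differences. The abundant genes sqt-3, dpy-10, dpy-2, dpy-7 and dpy-3, at mean normalized counts of 1000 to 20000, had a median log2 fold change of -0.14, where the 5231 genes of that range had a median of 0.025 and the middle 90% of them lay between -0.13 and 0.13. The 3 genes at 50 to 250 counts, dpy-8, dpy-13 and rol-6, had a median of -0.59, where 2953 genes had a median of -0.054 and the same share lay between -0.45 and 0.29. Taken singly, dpy-13 (-0.35), dpy-10 (-0.10) and dpy-3 (-0.063) lay within the middle 90% of their range, while dpy-8, rol-6, sqt-3, dpy-2 and dpy-7 lay below it. Both arsenite libraries were below both controls in 27.2% of all genes of the lower range and in 10.5% of the higher one. Low counts are also less precise, with a median standard error of 0.17 in the lower range and 0.07 in the higher one. The remaining tested gene, bli-1 (-0.024), has fewer counts than these ranges. At 10 to 50 counts, 2363 genes had a median of -0.087, and bli-1 lay above it. The middle 90% of them, from -0.73 to 0.56, included bli-1.

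Other collagens of the same mutant classes included 3 genes that fell by the exact test. Of 11 further body shape collagens, 9 were tested and 8 had a log2 fold change below 0, with a median of -0.21. The exact test passed 3 of the 9 as lower, beside 0.617% of all genes lower by that test, and 0 as higher. The quasi-likelihood test passed 0 of the 9, with 4 lower at an unadjusted p under 0.05, beside 5.05% of all genes, and DESeq2 passed 0. Without the filter on low counts, the quasi-likelihood test passed the same 3 genes, among 44 lower of 18624 tested. The first was sqt-1, the collagen that rol-6 needs for its rolling phenotype, with 65.01 and 62.1 normalized counts under arsenite and 110.6 and 134.7 in controls. The log2 fold change of sqt-1 was -0.94 (SE 0.18, exact test adjusted p = 0.00107, quasi-likelihood adjusted p = 0.227). For dpy-5, another collagen of the annuli, the normalized counts were 86.68 and 94.58 with arsenite and 135.4 and 204.2 in controls. Its log2 fold change of -0.90 (exact test adjusted p = 0.00978, quasi-likelihood adjusted p = 0.28) was -0.58 without control replicate 2. For rol-8, a collagen with rolling mutants, the normalized counts were 155.8 and 168.1 with arsenite and 227.9 and 302.5 in controls. Its log2 fold change was -0.71 (exact test adjusted p = 0.00758, quasi-likelihood adjusted p = 0.277), and it was -0.49 without control replicate 2. In all 3 genes the groups did not overlap.

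With a library left out, the log2 fold change ran from -1.09 to -0.80 for sqt-1, from -1.17 to -0.58 for dpy-5 and from -0.90 to -0.49 for rol-8. In each of these genes it was lowest without control replicate 1 and closest to 0 without control replicate 2. The exact test passed each of them in some of these fits only. The remaining rol-1 and bli-6 did not pass the filter, with raw counts of at most 9 and 12. The abundant dpy-14 and dpy-17, of which dpy-17 is needed for secretion of sqt-3, had log2 fold changes of 0.0056 (95% interval -0.16 to 0.17) and -0.10 (95% interval -0.26 to 0.046). The sixth furrow collagen, dpy-9, had a log2 fold change of -0.21 (95% interval -0.55 to 0.13). Over the 18 body shape collagens tested, 17 had a log2 fold change below 0, and Spearman's rho of the log2 fold change with mean RPKM was 0.57, a description over genes that share the same 4 libraries. Over the 9 genes described here alone it was 0.22.

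**Figure D4:**
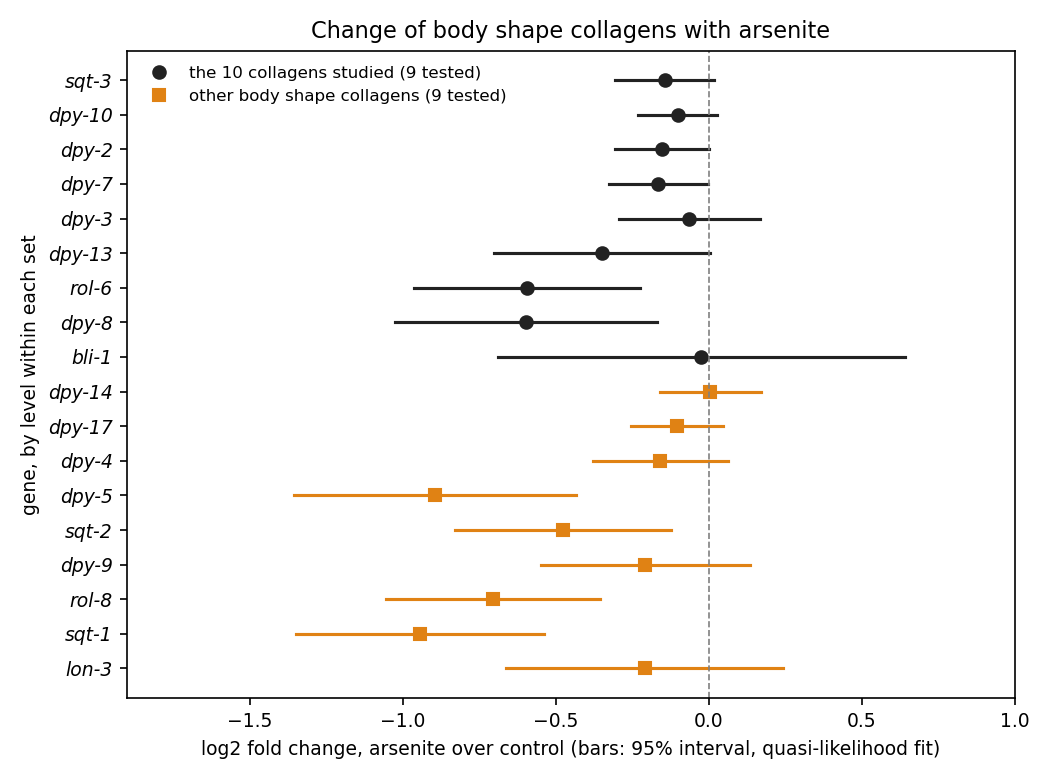
Log2 fold change, arsenite over control, with 95% intervals from the quasi-likelihood fit, for the 9 tested genes of the 10 collagens (black circles) and 9 other body shape collagens (orange squares), each set ordered by level from the top. The lowest values are those of sqt-1, dpy-5 and rol-8 at -0.94, -0.90 and -0.71, while the interval of bli-1 spans -0.69 to 0.64.

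**Figure D5:**
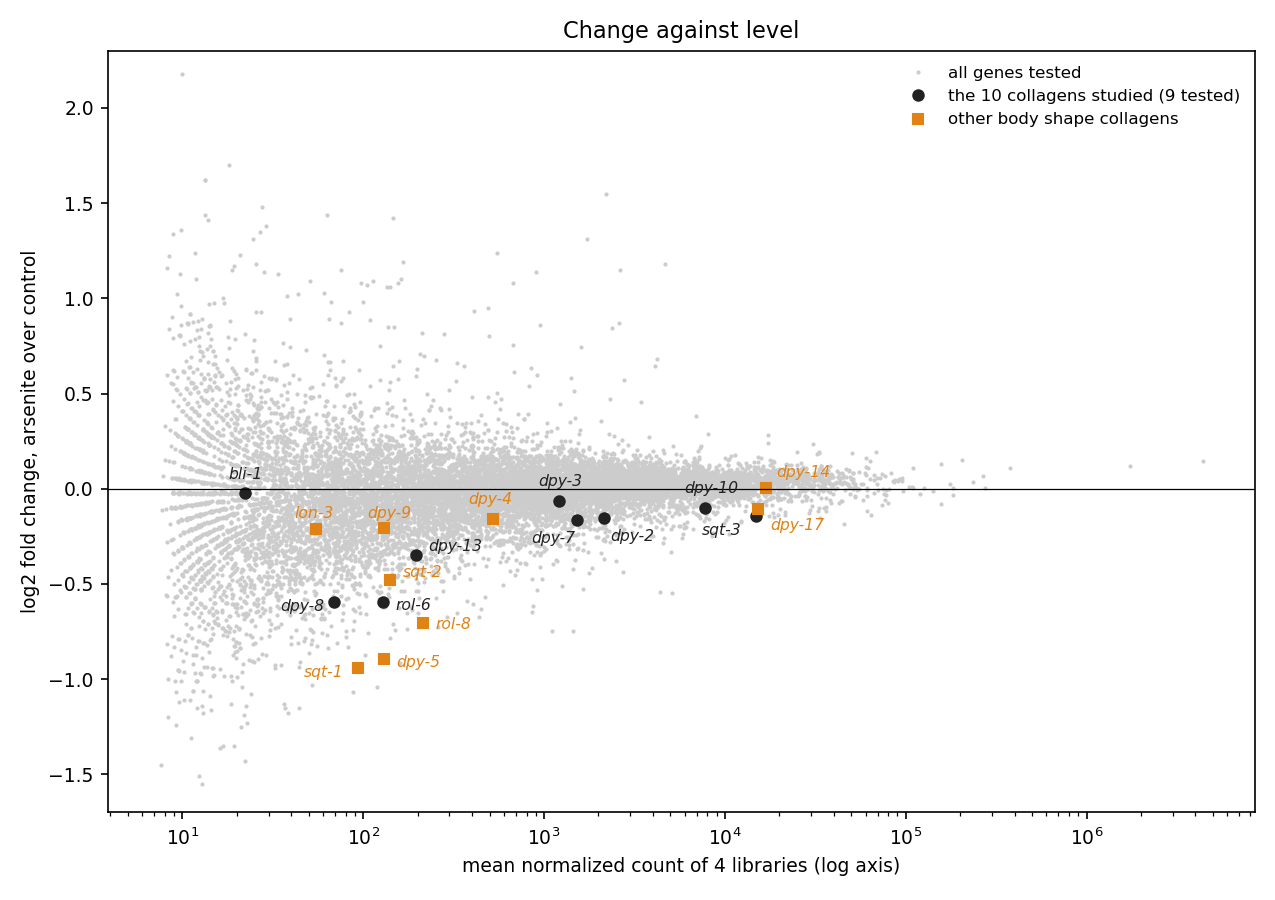
Log2 fold change, arsenite over control, against the mean normalized count of 4 libraries on a log axis, for all 13776 genes tested (grey), the 9 tested genes of the 10 collagens (black circles) and other body shape collagens (orange squares). The collagens with 50 to 250 counts run from -0.94 to -0.21, and those above 1000 counts from -0.16 to 0.0056.

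Genes that serve to modify, trim and crosslink cuticle collagens, enzymes and their partners, had log2 fold changes from -0.12 to 0.089. Of 13 genes of this list, 12 were tested, the quasi-likelihood test and the exact test passed 0 in either direction, 0 had an unadjusted p under 0.05, and the median log2 fold change was -0.021. The lowest p belonged to dpy-31, the astacin protease that trims the carboxyl end of sqt-3, with 2200 and 2218 normalized counts under arsenite and 2440 and 2363 in controls. Its log2 fold change was -0.12 (95% interval -0.27 to 0.026, quasi-likelihood adjusted p = 0.783). The next, phy-2, a prolyl hydroxylase subunit, was at -0.10 (95% interval -0.29 to 0.085). Of 4 genes known to be raised when furrow collagens are lost, the epidermal antimicrobial peptide nlp-29 rose by the exact test, beside 0.392% of all genes higher by that test. Its normalized counts were 851.3 and 1096 with arsenite and 750.5 and 585.8 in controls, a log2 fold change of 0.54 (exact test adjusted p = 0.0316, quasi-likelihood adjusted p = 0.319). Without control replicate 2 the log2 fold change was 0.38 and the exact test adjusted p 0.205, while leaving out arsenite replicate 2 gave 0.35 and 0.984. Leaving out arsenite replicate 1 gave 0.715 and 8.89e-05, and leaving out control replicate 1 gave 0.73 and 0.000121. With library size as the only scaling the exact test adjusted p of nlp-29 was 0.0775, and DESeq2 did not pass it (adjusted p = 0.0901). With the correction for transcript length its log2 fold change was 0.41 (quasi-likelihood adjusted p = 0.596). The others were at 0.11 for gst-4, -0.044 for gpdh-1, an enzyme of glycerol synthesis, and -0.12 for hmit-1.1, and none of these 3 passed.

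Of 8 transcription factors of the epidermis, none passed the quasi-likelihood or the exact test, and the median log2 fold change was -0.049. The lowest p belonged to grh-1, the worm Grainyhead factor, with 699.6 and 646.8 normalized counts under arsenite and 800.1 and 848.7 in controls. Its log2 fold change was -0.29 (SE 0.087, interval -0.49 to -0.098, quasi-likelihood adjusted p = 0.415, exact test adjusted p = 0.185). The next was nhr-25, a nuclear receptor of the moulting programme, at -0.11 (quasi-likelihood adjusted p = 0.814). The 3 collagens of basement membranes, which are not part of the cuticle, had log2 fold changes of -0.077 for emb-9, -0.057 for let-2 and -0.037 for cle-1, and none passed the quasi-likelihood or the exact test.

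Markers of other stages were read beside these values, because moulting larvae and embryos transcribe cuticle collagens. All 12 genes of moulting were measured, 9 had a log2 fold change below 0 with a median of -0.055, and their summed normalized counts were 68621 and 70602 with arsenite and 72133 and 73424 in controls. The moulting gene mlt-9 fell by the exact test, with 1520 and 1646 normalized counts under arsenite and 2137 and 2084 in controls and a log2 fold change of -0.41 (exact test adjusted p = 0.00109, quasi-likelihood adjusted p = 0.192). It also passed DESeq2 (adjusted p = 0.0171). Of the 12 genes the exact test passed 1 as lower, beside 0.617% of all genes, and DESeq2 passed 1 as lower, beside 0.16%. When arsenite replicate 1 or 2 was left out, the log2 fold change of mlt-9 was -0.36 or -0.47. It was -0.40 or -0.43 without control replicate 1 or 2, and the exact test passed mlt-9 in only some of these fits. Of 12 embryo markers 10 were tested and 0 passed either test, with a median log2 fold change of -0.069 and sums of 7571 and 7584 with arsenite and 7801 and 7943 in controls. Of these markers med-1 and med-2 had raw counts of at most 2 in each library. The adult collagen col-19 had a log2 fold change of 0.14 (95% interval -0.021 to 0.30), towards higher with arsenite. Of the 8 genes of adult tissues, 4 had a log2 fold change below 0, with a median of -0.0061. These 4 were the muscle genes unc-54 (-0.12), myo-3 (-0.25) and myo-2 and the neuronal gene rab-3 (-0.33), while the germline genes glh-1 (0.15) and pgl-1 (0.10) and the yolk genes vit-2 (0.12) and vit-6 (0.15) were above 0. At an unadjusted p under 0.05 of the quasi-likelihood test, 3 of the 8 were lower, beside 5.05% of all genes, namely myo-2, myo-3 and rab-3. By the same measure 1 was higher, glh-1, beside 2.16% of all genes. The pharyngeal myosin myo-2 fell by the exact test, with 4446 and 4461 normalized counts under arsenite and 5482 and 5728 in controls. Its log2 fold change was -0.33 (exact test adjusted p = 0.00278, quasi-likelihood adjusted p = 0.202). It also passed DESeq2 (adjusted p = 0.0287). Of the 8 genes each of these 2 tests passed 1 as lower, beside 0.617% of all genes by the exact test and 0.16% by DESeq2. With arsenite replicate 1 or 2 left out, the log2 fold change of myo-2 was -0.33 in both fits. It was -0.37 or -0.30 without control replicate 1 or 2, and the exact test passed myo-2 in only some of these fits. The part of these markers in the values of the collagens was not tested.

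The genes most like the 9 collagens in their pattern over the 4 libraries were sought by the root mean square difference between log2 levels centred on each gene's mean and the mean centred profile of the 9 collagens. That profile was -0.087 and -0.15 with arsenite and 0.029 and 0.21 in controls, replicates 1 and 2 in each. The nearest gene was oac-14 with a difference of 0.0093, with 124.9 and 117.5 normalized counts under arsenite and 135.4 and 153.9 in controls. The others of the nearest 10 were uvt-5, nhr-231, Y34B4A.10, F53C3.5, rgs-6, F47G3.1, Y15E3A.4, C48B4.13 and T10E10.4, with differences up to 0.018. None of these 10 is named as a collagen, and with 4 libraries the measure describes these samples only. Of the 9 collagens, dpy-7 and sqt-3 lay closest to their mean profile, at 0.048 and 0.052, and dpy-8 and rol-6 farthest from it, both at 0.19. Among all genes tested, 65.4% lay nearer to that profile than dpy-8 and 66.4% nearer than rol-6. The mean profile includes each of the 9 collagens compared with it.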

How the data were processed

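The authors mapped reads of an mRNA-seq library kit with Bowtie to the worm genome and to splice junctions, kept reads with a unique position, assigned them by the RefSeq annotation and deposited raw counts per transcript and per gene. The deposited RPKM values scale these reads by transcript length and depth, and were used only for levels between genes and for transcript lengths. CASAVA and the build WBcel235 are named in the submitters' processing notes, without versions. The count of each of the 19912 genes equals the sum over its transcripts, so that reads shared by isoforms entered more than once and totals exceed the number of reads.

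Gene counts were tested with edgeR 4.0.16 in R 4.3.3, by filterByExpr (minimum count 10, minimum total 15), TMM and the quasi-likelihood test with 1 term for condition and with Benjamini-Hochberg adjustment over all 13776 genes at 0.05. Scripts were tested on simulated counts. Normalized counts are counts per TMM-scaled library size, times the mean size. For the standard error (SE) each log2 fold change was divided by the root of its F value, and all intervals are 95% intervals from the degrees of freedom of that test. The 2 libraries per group and the totals, 44263387 to 50472338, limit the precision at low counts. Alternatives tried were the exact test and the likelihood ratio test of edgeR, DESeq2 1.42.0 (genes with no adjusted p counted as not passing), other scalings and filters, the replicate block, a correction for transcript length by loess (span 0.5), the transcript table and leaving out each library. Members and lists were chosen with earlier results of these data known. Text names all 10 members, genes of the lists other than markers that pass the quasi-likelihood or exact test or else the 2 with the lowest p, and the 10 nearest profiles. Markers and other genes named for comparison, such as dpy-9, dpy-14, dpy-17, col-19, mlt-9, myo-2, cle-1, gst-4 and gpdh-1, were chosen after their values were seen. The names bli-6, doxa-1 and ceh-51 were matched to older names in the files by RefSeq accession, and skpo-1 was not used here because its name in the files covers several genes.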

Additional observations from a re-analysis of the deposited data

How the results depend on the processing

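Under all alternatives tried the median log2 fold change of the collagens stayed below 0. This median ran from -0.22 without control replicate 1, where that of all genes was -0.0012, to -0.11 with the length correction. With that correction the median of all genes was 0.034, against 0.0055 in the main fit. The number of collagens past the threshold was 0 under the alternatives that kept all 4 libraries. The exact test, run only with other scalings and filters and with each library left out, also passed 0 when all 4 libraries were kept. Without control replicate 1, sqt-3 was at -0.24 and passed the quasi-likelihood test, in a fit that passed more of all genes than the main fit. The exact test also passed a collagen without that library, where its share of all genes is not given here. Of the 9, 7 to 9 had a log2 fold change below 0 with a library left out. It turned above 0 for dpy-3 (0.10) and bli-1 (0.12) without control replicate 2, and for bli-1 without arsenite replicate 2 (0.032), with the length correction (0.0098) and with that and the replicate block (0.0061), and ranged from -0.17 to 0.12 for bli-1 with a library left out. The number lower at an unadjusted p under 0.05, a count added after seeing the data, was 3, beside 5.05% of all genes. It was also 3 with the exact test (beside 5.28%) and with the likelihood ratio test (5.64%). It became 1 with DESeq2 (beside 2.24%), 6 with library size only (6.43%) and 6 with the replicate block (6.19%). It was 2 with RLE scaling (4.9%), 2 with the length correction (3.96%) and 2 with that and the block (4.58%). It was 4 without a filter on low counts (4.47%) and 4 with CPM of at least 1 in all 4 libraries (5.24%). In the transcript table it was 5, and the share over all transcripts is not given here. The cause was not tested. Replicate numbers were not shown to pair the samples: over 13776 genes, the deviations of same-numbered libraries had a Pearson's r of 0.052 and a Spearman's rho of 0.14. The block passed 0 of the 9 members, but sqt-1, rol-8 and dpy-5 passed the quasi-likelihood test with it (adjusted p = 0.0397, 0.0313 and 0.0332). They did not with the length correction as well. The filter of CPM at least 1 in all 4 libraries removed bli-1, so that 8 collagens were tested there. Without a library, the remaining sample of that group is taken to be as variable as the samples of the other one. Over all genes the quasi-likelihood test passed 0, but 35 higher and 44 lower without a filter on low counts, 30 and 50 with the block, and, when a library was dropped, 100 and 58 (arsenite replicate 1), 6 and 8 (arsenite replicate 2), 121 and 72 (control replicate 1) or 1 and 1 (control replicate 2). Depth limits bli-1, bli-2 and dpy-8 most.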
